A study of Mus musculus with 24 samples.

Results

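Ddc and 8 other genes of monoamine metabolism (Th, Dbh, Tph1, Gch1, Maoa, Maob, Hdc and Slc18a2) were followed in lacrimal glands of T- and placebo-treated female NOD and MRL/lpr mice. The genes were chosen from earlier results of these arrays, in which Ddc responded to T, so all Ddc values below are a description and carry no test. Every probe annotated to 1 of the 9 genes was taken, which gave 8 CodeLink (CL) probes of 17440 and 9 Affymetrix (Affy) probe sets of 22690. CL measured 8 of the genes and Affy 7, with 6 on both. Maob and Slc18a2 were read on CL alone, and Hdc on Affy alone.

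The 4 groups were NOD T, NOD placebo, MRL/lpr T and MRL/lpr placebo, with 3 pools of exorbital lacrimal glands in each, and each pool was read on 1 CL and 1 Affy array (24 arrays in all). All mice were adult females of autoimmune strains, and they carried a subcutaneous pellet of 10 mg of T or of placebo. At implantation of the pellet they were aged 21 weeks in NOD and 17 to 18 weeks in MRL/lpr. Sample labels gave 21 days of treatment and 2 to 4 mice per pool for NOD, and 18 days and 6 mice per pool for MRL/lpr, whereas the methods gave 20 to 21 days for both strains. MRL/lpr mice carry the lpr mutation of the Fas death receptor in placebo and T groups alike, and the strains therefore differ in age, treatment time and pool size as well as in genotype.

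Monoamines are made from aromatic amino acids. Th and Tph1 hydroxylate tyrosine and tryptophan with tetrahydrobiopterin as cofactor, which is made by a pathway that starts with Gch1. Ddc (aromatic L-amino acid decarboxylase) uses vitamin B6 to convert L-DOPA to dopamine and 5-hydroxytryptophan to serotonin, and it can also form trace amines. Dbh turns dopamine into noradrenaline, Hdc makes histamine, Slc18a2 loads monoamines into vesicles, and Maoa and Maob oxidize them. In most exocrine glands noradrenaline comes from sympathetic nerve endings, whose cell bodies and most of whose mRNA lie outside the gland.

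CL signals are spot intensities divided by the median of the array, and a spot could be marked near background by the scanner software. Affy signals were scaled to a trimmed mean of 500 per array, and a signal under 70.5 (a floor at 0.5 of the platform's median) was treated as not measurable. Of the member probes, 8 of 8 on CL and 6 of 9 on Affy passed the filter, under which at least 1 group had to average above the floor (0.5 on CL). Probes that failed it were Th and both Hdc probe sets on Affy. A probe that passed only through the group in which it was high had to differ between groups. Ddc passed only through T groups, Tph1 on Affy only through NOD T, and the second Gch1 probe set on Affy through NOD T and MRL/lpr placebo, so counts over the members that passed are no support for a difference. A member gene was called when limma gave an adjusted p under 0.05, Benjamini-Hochberg adjusted across every probe that the platform kept. Markers of lacrimal acinar cells were bright in all groups, with a summed CL signal of 5 markers between 1919 and 5508, although Chrm3 was near background. Pool 1 of MRL/lpr placebo stood apart. Its signal for the salivary protein gene Bpifa2 was 2239 on CL and 59048 on Affy, against at most 2.99 and 86.3 in the 11 other pools, and the MRL/lpr results are therefore also given without it.

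T was accompanied by a large increase of Ddc in both strains. On CL, Ddc read 2.95, 7.78 and 4.87 in the NOD T pools, against 0.48, -0.081 and 0.43 in the NOD placebo pools. In MRL/lpr it read 23.4, 24.9 and 9.97 in the T pools, against 0.45, 0.077 and -0.021 in the placebo pools. All 6 placebo spots were marked near background and none of the 6 T spots was. On Affy, Ddc read 1377, 3228 and 2541 in the NOD T pools, against 67.7, 31.9 and 22.4 in the NOD placebo pools. In MRL/lpr the Affy signal was 8431, 7578 and 6226 in the T pools, against 63.2, 48.2 and 61.9 in the placebo pools. No T pool overlapped a placebo pool in either strain on either platform, and all 6 placebo signals on Affy lay under the floor. In pooled glands, more cells that express a gene and more of its RNA per cell cannot be told apart.

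Because the placebo signal could not be measured, the increase has only a lower bound. Taking for each placebo array the higher of the lowest measurable signal and the signal of Ddc itself, Ddc was at least 3.48-fold higher in NOD T and at least 18.3-fold higher in MRL/lpr T than in the placebo pools on CL. The corresponding bounds on Affy were at least 31.8-fold in NOD and at least 104.3-fold in MRL/lpr. With normexp background correction of the raw CL intensities, the log2 change was 1.15 in NOD and 2.44 in MRL/lpr, which is smaller than both CL bounds. That setting adds an offset of 50 to every intensity before log2 is taken, which shrinks changes of dim spots. Its values and the bounds are therefore not on the same scale. With placebo signals raised to the floor, the log2 change was 3.27 ± 0.38 (SE) in NOD and 5.17 ± 0.38 in MRL/lpr on CL, and 4.99 ± 0.28 in NOD and 6.70 ± 0.28 in MRL/lpr on Affy. The size of these changes depends on where the floor lies, and a higher floor gave 2.27 in NOD and 4.17 in MRL/lpr on CL and 3.99 and 5.70 on Affy. Without the MRL/lpr placebo pool that held salivary transcripts, the changes in MRL/lpr were 5.17 on CL and 6.70 on Affy, because every remaining placebo value was also at the floor.

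**Figure D1:**
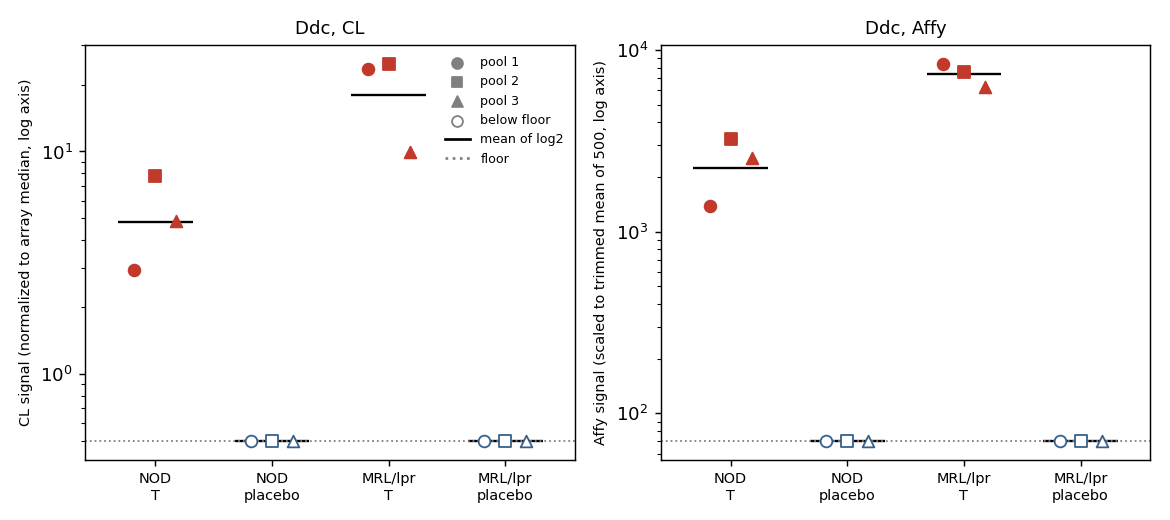
Ddc signal of each pool on CL (left) and Affy (right), on log axes, for NOD T, NOD placebo, MRL/lpr T and MRL/lpr placebo. Marker shape gives the pool, open markers are signals below the floor drawn at the floor, and bars are means of the log2 values; all 6 placebo pools sit at the floor on both platforms and all T pools lie above it.

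Under T the strains differed in the level of Ddc. The mean signal was 5.2 ± 2.44 in NOD T and 19.4 ± 8.2 in MRL/lpr T on CL (SD, n = 3 pools each), and 2382 ± 936.0 in NOD T and 7411 ± 1112 in MRL/lpr T on Affy. The highest NOD T pool was below the lowest MRL/lpr T pool on both platforms, and the difference of NOD T minus MRL/lpr T was -1.90 on the log2 scale on CL and -1.71 on Affy, but 0.17 on Affy when the signals were taken as deposited. Without that scaling the median of all probe sets also shifted by 1.52 between these groups. Within NOD T, pool 1 was lowest and pool 2 highest on both platforms, with the highest signal 2.64 times the lowest on CL and 2.34 times on Affy. Within MRL/lpr T, pool 3 was lowest on both, 2.49 and 1.35 times below the highest.

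Ddc lies on the minus strand of chromosome 11 at 11814101 to 11898144 (GRCm38.p6). RefSeq gives it a pair of transcription starts that are 7736 bases apart. In rat and human, alternative first exons of this gene are used in neural and in non-neural tissue. The array probes were not placed on either first exon here, so the signals do not say which start was used. The windows from 250 bases before to 50 bases after each start (RefSeq, GRCm38.p6) are shown because Ddc carries the largest change among the members, and those of Dbh, the enzyme after Ddc, and of Moxd2, a relative of Dbh, because both were called higher with T on at least 1 platform. Capitals mark the hexamer AGAACA or its reverse complement TGTTCT, the half-site of the androgen response element, searched on both strands.
Ddc, upstream start, chr11:11898095-11898394, minus strand: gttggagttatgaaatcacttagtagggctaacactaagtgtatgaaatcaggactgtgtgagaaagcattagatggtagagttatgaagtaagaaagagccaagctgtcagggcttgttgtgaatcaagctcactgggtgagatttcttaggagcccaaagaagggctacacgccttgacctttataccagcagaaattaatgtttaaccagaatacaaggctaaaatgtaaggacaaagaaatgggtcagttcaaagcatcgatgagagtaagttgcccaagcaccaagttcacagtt
Ddc, downstream start, chr11:11890359-11890658, minus strand: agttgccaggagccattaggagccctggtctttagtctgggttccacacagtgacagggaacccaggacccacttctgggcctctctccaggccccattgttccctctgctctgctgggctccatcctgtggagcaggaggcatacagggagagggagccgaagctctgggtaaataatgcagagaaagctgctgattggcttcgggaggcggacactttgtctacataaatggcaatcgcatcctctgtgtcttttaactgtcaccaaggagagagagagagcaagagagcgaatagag
Dbh, chr2:27165257-27165556, plus strand: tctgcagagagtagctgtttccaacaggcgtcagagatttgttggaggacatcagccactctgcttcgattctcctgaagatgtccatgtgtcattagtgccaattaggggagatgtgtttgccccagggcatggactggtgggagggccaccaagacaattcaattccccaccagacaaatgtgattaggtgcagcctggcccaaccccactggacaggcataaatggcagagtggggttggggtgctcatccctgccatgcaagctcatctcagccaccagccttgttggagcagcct
Moxd2, chr6:40887445-40887744, minus strand: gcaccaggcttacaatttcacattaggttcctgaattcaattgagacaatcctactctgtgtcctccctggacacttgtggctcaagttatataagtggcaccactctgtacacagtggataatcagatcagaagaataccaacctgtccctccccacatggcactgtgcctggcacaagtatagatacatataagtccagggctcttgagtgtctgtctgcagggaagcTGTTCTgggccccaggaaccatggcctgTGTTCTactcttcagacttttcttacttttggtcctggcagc
Neither Ddc window and not the Dbh window held the hexamer. The Moxd2 window held it at -20 and at 9, counted from the first base of the hexamer with the start as 1. Of 32851 such windows in the mouse table, 19.0% held at least 1 and 2.54% held at least 2. Of the 8 members with a window, Hdc (at -137) and Slc18a2 (at -185) held 1 each. The full element, AGAACA followed after 3 bases by TGTTCT, was in 3 of all windows and in none of those of the members, and a match or its absence in these windows says nothing about binding.

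Dbh was the only other member called for T. Of the 7 other members tested on CL, limma called 1 in NOD and 1 in MRL/lpr, which was Dbh both times, where 17.3% of all 8959 genes tested were called in NOD and 13.3% in MRL/lpr. Of the 4 tested on Affy, 0 were called in either strain, where 12.3% of 10406 genes were called in NOD and 9.23% in MRL/lpr. At an unadjusted p under 0.05 the Affy counts were 0 in NOD and 1 (Maoa) in MRL/lpr, and the methods' t-test gave the same counts. Shares this near to those of all genes are not a result about the members. The median log2 change of these members was 0.27 in NOD and -0.32 in MRL/lpr on CL (all probes, -0.10 and -0.02), and 0.07 and -0.01 on Affy (all probe sets, 0.0 and 0.02).

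**Figure D2:**
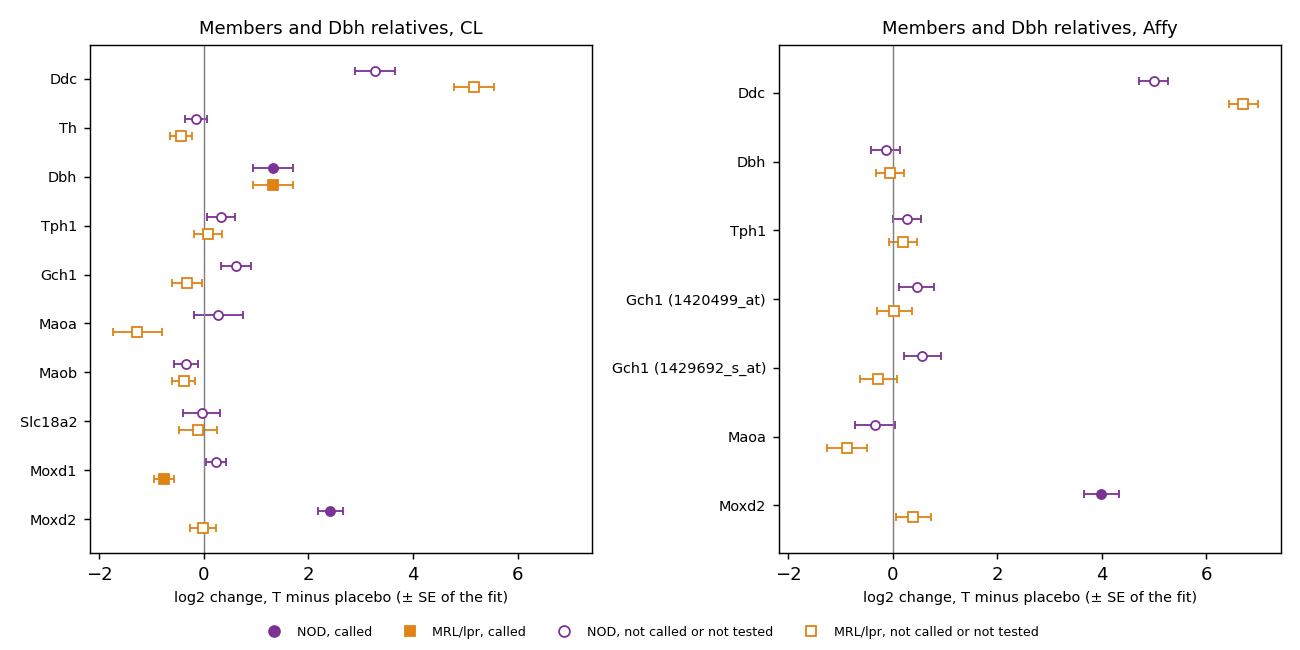
Log2 change, T minus placebo, with its standard error from the fit for each tested probe of the members and of Moxd1 and Moxd2, on CL (left) and Affy (right). Circles are NOD, squares MRL/lpr, and filled symbols were called; Ddc, which was not tested, lies farthest to the right, Dbh is called on CL alone and Moxd2 is called in NOD alone.

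The enzyme next to Ddc in noradrenaline synthesis, Dbh (chromosome 2, 27165507 to 27183204), rose with T on CL. Its signal was 42.5, 34.1 and 40.2 in the NOD T pools, against 24.4, 7.49 and 20.1 in the NOD placebo pools. It was 57.7, 71.9 and 97.0 in the MRL/lpr T pools, against 38.2, 26.4 and 25.8 in the MRL/lpr placebo pools. In each strain the lowest T pool was above the highest placebo pool, and none of the 12 spots was near background. The log2 change was 1.33 ± 0.38 in NOD (limma, adjusted p = 0.0326) and 1.32 ± 0.38 in MRL/lpr (adjusted p = 0.0423). On Affy, Dbh lay between 29.9 and 118.8, around the floor, and its log2 change was -0.13 ± 0.27 in NOD (adjusted p = 0.873) and -0.06 ± 0.27 in MRL/lpr (adjusted p = 0.938). The platforms therefore gave different answers for Dbh, with the CL probe well above background and the Affy probe set near the floor.

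Both calls on CL were close to the threshold. Without pool 2 of NOD placebo, the lowest of its group, the change in NOD was 0.81 (adjusted p = 0.0646). Leaving out any NOD T pool also ended the NOD call, with an adjusted p between 0.0622 and 0.0912. In MRL/lpr the change without the pool that held salivary transcripts was 1.5 (adjusted p = 0.0551), and leaving out 1 of 8 of the 12 pools ended the call, with an adjusted p of up to 0.139. Without either T pool 2 or T pool 3 of MRL/lpr the adjusted p was 0.0933 or 0.139, and without placebo pool 2 or 3 it was 0.130 or 0.134.

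Hydroxylases upstream of Ddc gave little signal. Th (chromosome 7) read between 0.957 and 1.6 on CL in all 12 pools, 8 of them near background, and the MRL/lpr T pools (0.957, 1.04 and 1.21) lay below the MRL/lpr placebo pools (1.47, 1.6 and 1.24). Th had a log2 change of -0.15 ± 0.21 in NOD and -0.43 ± 0.21 in MRL/lpr that was not called (adjusted p = 0.691 and 0.234). On Affy, Th was under the floor in 11 of 12 pools, with 116.5 in pool 1 of NOD placebo. Tph1 (chromosome 7) was marked near background in all 12 pools on CL, and on Affy it passed the floor in 3 pools, 1 each of NOD T, MRL/lpr T and MRL/lpr placebo. Its log2 change was 0.33 ± 0.27 in NOD and 0.08 ± 0.27 in MRL/lpr on CL, and neither was called. For Th on CL, all 3 MRL/lpr T spots were near background and none of the 3 MRL/lpr placebo spots was.

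Gch1 (chromosome 14), the first enzyme of cofactor synthesis, read 1.33, 2.0 and 2.28 in NOD T on CL, against 1.17, 1.23 and 1.17 in NOD placebo, and 0.43, 0.72 and 0.90 in MRL/lpr T, against 1.14, 0.86 and 0.65 in MRL/lpr placebo. The NOD T pools lay above the NOD placebo pools, while the MRL/lpr groups overlapped. Its log2 change was 0.62 ± 0.28 in NOD (adjusted p = 0.177) and -0.32 ± 0.28 in MRL/lpr (adjusted p = 0.541), so neither was called. The brighter Affy probe set read 173.7, 191.7 and 174.9 in NOD T, against 153.1, 150.0 and 97.0 in NOD placebo (log2 change 0.46 ± 0.33, adjusted p = 0.503). In MRL/lpr its log2 change was 0.04 ± 0.33 (adjusted p = 0.974). The other Gch1 probe set was dim and read 222.3, 72.7 and 60.9 in NOD T, against 18.9, 65.8 and 59.4 in NOD placebo, and 15.8, 15.5 and 24.8 in MRL/lpr T, against 76.4, 115.0 and 40.9 in MRL/lpr placebo. The MRL/lpr T pools, all under the floor, lay below the MRL/lpr placebo pools. Its log2 change was 0.57 in NOD and -0.27 in MRL/lpr and was not called (adjusted p = 0.423 and 0.706).

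Transcripts of the degrading enzyme Maoa (X chromosome) were lower in T than in placebo pools of MRL/lpr without passing the test. On CL they read 0.42, 1.34 and 1.23 in MRL/lpr T, against 2.4, 2.3 and 2.11 in MRL/lpr placebo, and on Affy 132.6, 222.8 and 121.9 in MRL/lpr T, against 329.1, 279.6 and 241.1 in MRL/lpr placebo. The groups did not overlap on either platform. The log2 change was -1.27 ± 0.47 on CL, with an adjusted p of 0.111, and -0.87 ± 0.39 on Affy, with an adjusted p of 0.199. Without the pool that held salivary transcripts it was -1.23 and -0.76, with adjusted p of 0.231 and 0.395. In NOD the T and placebo pools overlapped on both platforms, with log2 changes of 0.27 ± 0.47 on CL and -0.33 ± 0.39 on Affy. Leaving out NOD placebo pool 1 brought the CL change in MRL/lpr past the threshold (adjusted p = 0.0346).

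**Figure D3:**
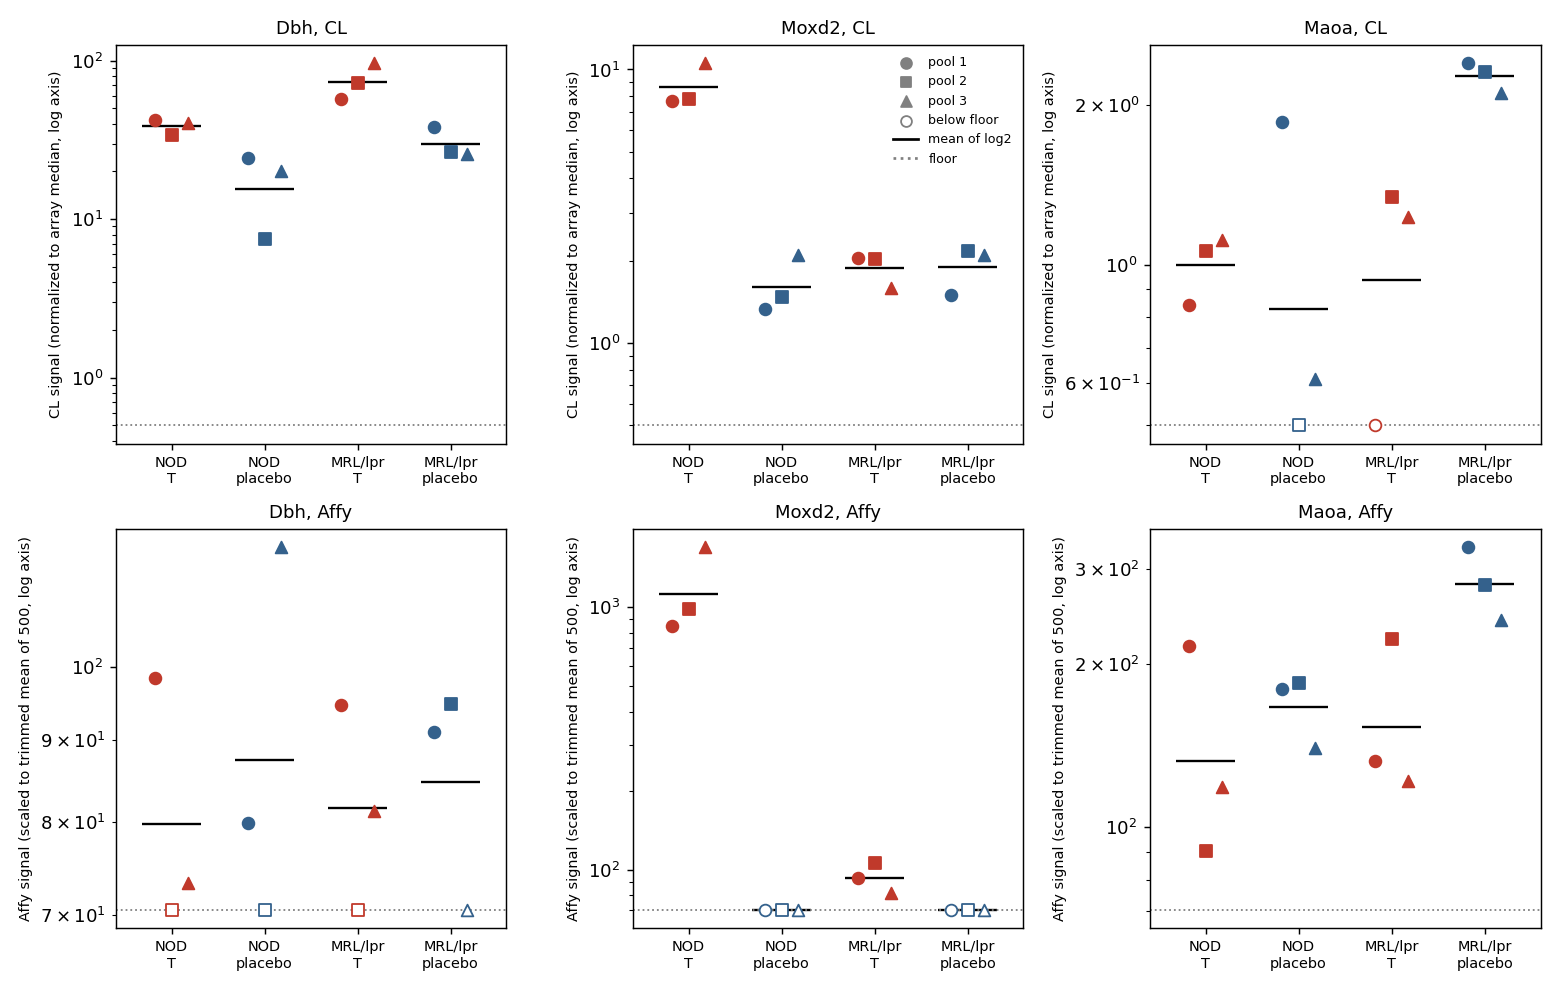
Signal of each pool for Dbh, Moxd2 and Maoa on CL (top) and Affy (bottom), on log axes whose ranges differ between panels, for NOD T, NOD placebo, MRL/lpr T and MRL/lpr placebo. Bars are means of log2 values and open markers lie below the floor; Dbh is higher in T on CL and scatters around the floor on Affy, Moxd2 is high in NOD T alone, and Maoa is lower in T than in placebo in MRL/lpr without being called.

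Maob, Slc18a2 and Hdc showed no called response to T. Maob, the neighbour of Maoa on the X chromosome, read 0.61, 1.05 and 0.90 in NOD T, against 1.13, 0.96 and 1.08 in NOD placebo, and 1.46, 1.56 and 1.37 in MRL/lpr T, against 1.59, 2.22 and 1.99 in MRL/lpr placebo. All MRL/lpr pools lay above all NOD pools. Slc18a2 (chromosome 19) lay between 0.808 and 2.55 in all pools, and its log2 change was -0.05 ± 0.36 in NOD and -0.11 ± 0.36 in MRL/lpr. Both Hdc probe sets (chromosome 2) were under the floor in all 12 pools, the highest at 60.2.

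Strains were compared within a treatment. Under placebo, 1 of 7 members was called on CL, where 10.6% of all genes were: Maob was lower in NOD than in MRL/lpr (log2 difference -0.86 ± 0.23, adjusted p = 0.034). Under T, 2 of 7 were called, where 13.3% of all genes were. Maob was again lower in NOD T than in MRL/lpr T (-0.81 ± 0.23, adjusted p = 0.0357), and Gch1 was higher (1.41 ± 0.28, adjusted p = 0.00583), at least 1.42-fold because all MRL/lpr T spots were near background. All NOD spots of Maob were near background, so that MRL/lpr exceeded NOD by at least 1.39-fold under placebo. Under T the same computation gave 1.36-fold. There, 2 of the 3 MRL/lpr T spots were also near background, so that value is not a firm lower bound. Leaving out single pools ended the Maob call in 5 of 12 cases under placebo and in 7 of 12 under T, with an adjusted p of up to 0.130. On Affy 0 of 4 members were called under placebo, where 6.9% of all genes were, and 0 of 4 under T, where 13.5% were, with 0 at an unadjusted p under 0.05 in both.

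The T response of the members was also compared between the strains directly. On CL 0 of 7 members had a called difference between the T effects in NOD and MRL/lpr, where 8.61% of all genes did, and on Affy 0 of 4 did, where 5.2% of all genes did (limma; 2 on CL, Gch1 and Maoa, and 0 on Affy at an unadjusted p under 0.05). The difference for Dbh on CL was 0.01 ± 0.54, and for Gch1 0.94 ± 0.40 (adjusted p = 0.205). For Maoa on CL it was 1.55 ± 0.66 (adjusted p = 0.211). Without NOD placebo pool 1, Maoa was called (2.13, adjusted p = 0.0333).

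Moxd1 and Moxd2 encode proteins of the same copper-dependent monooxygenase family as Dbh, and their substrates are not established. Moxd2 (chromosome 6, 40878794 to 40887494) rose in NOD T. On CL it read 7.69, 7.8 and 10.6 in NOD T, against 1.33, 1.48 and 2.1 in NOD placebo, and 2.05, 2.03 and 1.59 in MRL/lpr T, against 1.49, 2.17 and 2.09 in MRL/lpr placebo. On Affy it read 848, 988 and 1696 in NOD T, against 5.55, 24.2 and 9.09 in NOD placebo, and 93.1, 106.5 and 81.3 in MRL/lpr T, against 13.2, 68.3 and 64.2 in MRL/lpr placebo. The NOD T pools lay far above all others on both platforms. On Affy, Moxd2 passed the filter only through the T groups, since it averaged 12.9 in NOD placebo and 48.6 in MRL/lpr placebo. A difference was thereby favoured by the filter, so its Affy p values are no support for a difference. On CL, Moxd2 averaged above the floor in all groups. Its log2 change in NOD was 2.42 ± 0.25 on CL, with an adjusted p of 3.72e-05, and 3.99 ± 0.34 on Affy, with an adjusted p of 5.71e-07 and a bound of at least 15.9-fold. In MRL/lpr it was -0.01 ± 0.25 and 0.40 ± 0.34. The T effect was larger in NOD than in MRL/lpr by 2.43 ± 0.35 on CL, with an adjusted p of 0.00133, and by 3.59 ± 0.48 on Affy, with an adjusted p of 0.000227. Moxd2 is listed in the study among genes that were chosen on these samples, so its direction is not independent evidence. Moxd1 was near background in all 12 CL pools and passed the filter only through MRL/lpr placebo, so a difference was favoured by the filter. Its mean was 0.48 in NOD T, against 0.33 in NOD placebo, and 0.36 in MRL/lpr T, against 0.99 in MRL/lpr placebo. The log2 change in MRL/lpr was -0.77 ± 0.19 (adjusted p = 0.0215), but the adjusted p was 0.178 under a lower floor and 0.0753 with normexp.

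Wider lists of the pathway held 83 genes, of which 54 were tested on at least 1 platform. In NOD, 11 rose and 1 fell on at least 1 platform, where 10.1% of 12557 genes tested on at least 1 platform rose and 9.11% fell. In MRL/lpr 15 rose and 1 fell (Moxd1), where 7.33% of all genes rose and 7.51% fell. Higher on both platforms were 4 of the listed genes in NOD and 5 in MRL/lpr. Of all 6808 genes tested on both platforms, 3.95% were higher on both in NOD and 1.92% in MRL/lpr. How many of the listed genes were tested on both was not counted, so the list counts cannot be set against these shares. The lists were chosen with earlier results known, and these counts are given as a description.

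Enzymes that degrade monoamines, other than Maoa and Maob, held 6 of the 11 in NOD and 6 of the 15 in MRL/lpr. Of 9 measured genes in this list, 6 rose and 0 fell in NOD, and 6 rose and 0 fell in MRL/lpr, on at least 1 platform. Of all genes, 10.1% rose and 9.11% fell in NOD, and 7.33% rose and 7.51% fell in MRL/lpr. On both platforms, 3 rose in NOD and 4 in MRL/lpr. How many of the 9 were tested on both was not counted, so these counts cannot be set against a share of all genes. The median log2 change was 0.16 in NOD and 0.36 in MRL/lpr on CL (all probes, -0.10 and -0.02), and 0.16 and 1.20 on Affy (all probe sets, 0.0 and 0.02). Aldh3a2, the fatty aldehyde dehydrogenase, read 103, 48.1 and 56.9 in NOD T on CL, against 12.6, 13.8 and 13.9 in NOD placebo, and 23.6, 35.5 and 12.03 in MRL/lpr T, against 5.54, 5.86 and 5.1 in MRL/lpr placebo. The T pools lay above placebo in both strains, with log2 changes of 2.29 ± 0.36 in NOD (adjusted p = 0.000861) and 1.98 ± 0.36 in MRL/lpr (adjusted p = 0.00337), and on Affy of 1.00 ± 0.24 (adjusted p = 0.0111) and 1.46 ± 0.24 (adjusted p = 0.000914). Sult1a1, a phenol sulfotransferase that can sulfate catecholamines, read 3.01, 1.88 and 3.05 in NOD T on CL, against 0.58, 0.81 and -0.043 in NOD placebo, and 5.48, 3.73 and 2.72 in MRL/lpr T, against 1.67, 1.24 and 1.83 in MRL/lpr placebo. Its log2 change was 2.06 ± 0.31 in NOD and 1.29 ± 0.31 in MRL/lpr on CL, and 1.26 ± 0.28 and 1.20 ± 0.28 on Affy (adjusted p = 0.000672, 0.0177, 0.00675 and 0.0138). All NOD placebo spots of Sult1a1 were near background, so the bound on CL was at least 1.87-fold in NOD. In MRL/lpr the Affy call ended without the pool that held salivary transcripts (0.96, adjusted p = 0.0785), and the CL call under a lower floor (adjusted p = 0.0858), with each strain fitted alone (adjusted p = 0.0628) and without MRL/lpr T pool 1 or placebo pool 2 (adjusted p = 0.0673 and 0.0805). For Aldh3a2 the NOD call on Affy ended with each strain fitted alone (adjusted p = 0.179), with no filter (adjusted p = 0.051) and without NOD placebo pool 1 (adjusted p = 0.0635).

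Aldh9a1, an aldehyde dehydrogenase that acts on aminoaldehydes, gave different answers by probe. The Affy probe set with the larger change read 10299, 3805 and 4291 in NOD T, against 909.5, 1016 and 1034 in NOD placebo, and 3546, 2836 and 2861 in MRL/lpr T, against 880.0, 946.0 and 1014 in MRL/lpr placebo, and was called in both strains (2.49 ± 0.28, adjusted p = 1.16e-05, and 1.70 ± 0.28, adjusted p = 0.00088). Its other probe set gave 0.51 in NOD and 0.49 in MRL/lpr and was not called, and neither was its CL probe, at 0.16 ± 0.60 and -0.64 ± 0.60. Akr1a1, an aldehyde reductase, also differed between its probe sets, of which 1 rose and 1 fell in NOD (0.92 and -0.73), so that the gene was not called there. In MRL/lpr the first of these rose (1.03 ± 0.20, adjusted p = 0.00394). The histamine-methylating enzyme Hnmt, named after its values were seen, rose in both strains on both platforms (log2 change of 1.02 in NOD and 1.07 in MRL/lpr on CL, and 1.16 and 1.43 on Affy).

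**Figure D4:**
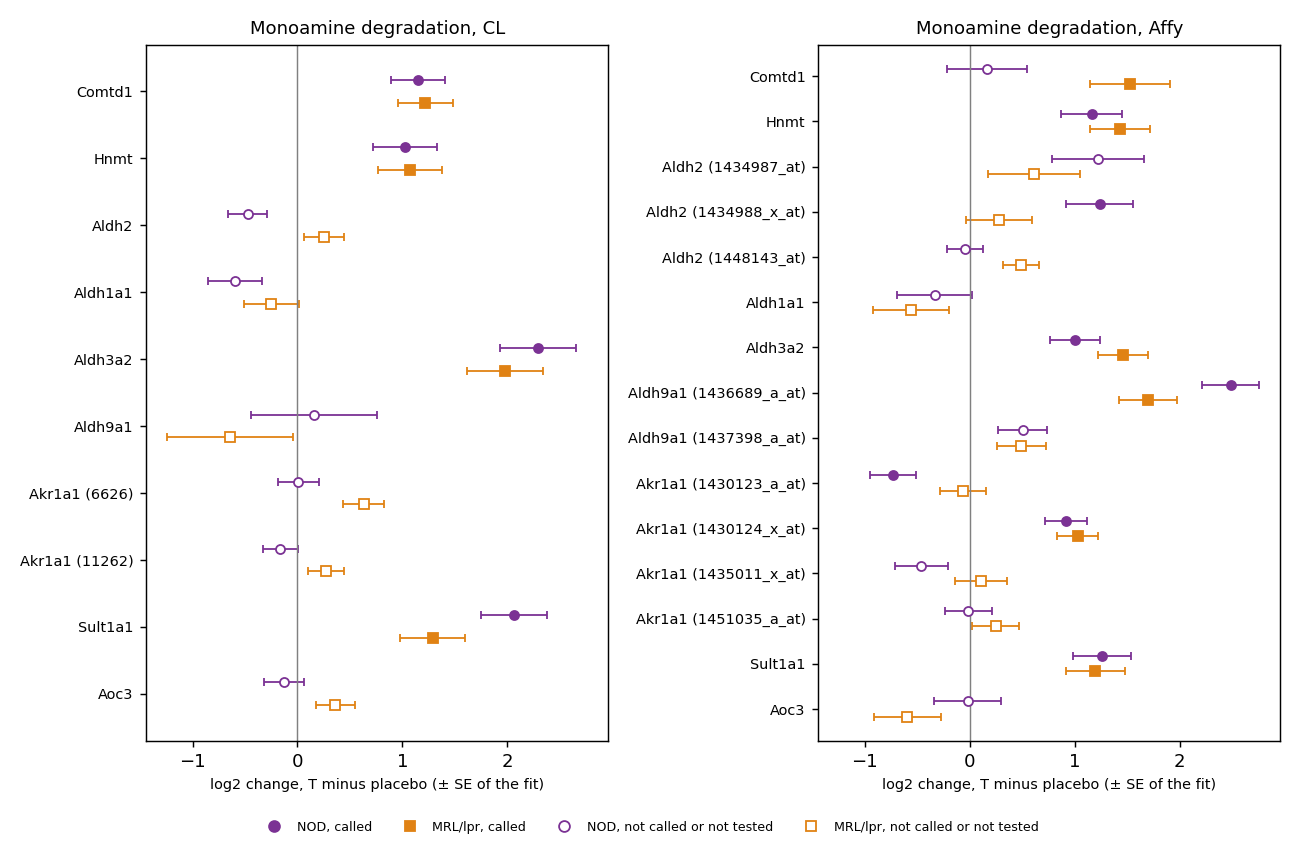
Log2 change, T minus placebo, with its standard error from the fit, for each tested probe of the monoamine degradation list on CL (left) and Affy (right). Circles are NOD, squares MRL/lpr, and filled symbols were called; Aldh3a2, Sult1a1 and Hnmt are called higher in both strains on both platforms, whereas probes of Aldh9a1, Aldh2 and Akr1a1 differ among themselves.

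In the other lists, few genes passed. Of all genes tested on at least 1 platform, 10.1% rose and 9.11% fell in NOD, and 7.33% rose and 7.51% fell in MRL/lpr. Of 5 tested genes of synthesis, Aanat, which acetylates serotonin on the way to melatonin, read 1.75, 1.86 and 2.28 in NOD T on CL, against 0.67, 1.25 and 0.91 in NOD placebo, and 3.19, 2.92 and 3.63 in MRL/lpr T, against 0.70, 1.05 and 0.91 in MRL/lpr placebo. It was called higher in both strains (1.10 ± 0.26, adjusted p = 0.011, and 1.88 ± 0.26, adjusted p = 0.000395), with at least 1.41-fold in NOD and at least 3.23-fold in MRL/lpr because all placebo spots were near background, but its Affy probe set gave -0.20 in NOD and -0.73 in MRL/lpr and was not called. With each strain fitted alone, the NOD call of Aanat ended (adjusted p = 0.0585). Cyb561, a cytochrome that supplies ascorbate electrons to Dbh in secretory vesicles, rose on Affy in MRL/lpr (0.82 ± 0.17, adjusted p = 0.00683) and was near background on CL. Of 5 cofactor genes other than Gch1, the called one was Pcbd1 (0.76 ± 0.20 in MRL/lpr on CL, adjusted p = 0.0299), whose spots were all near background and which passed the filter only through MRL/lpr T, and without the pool that held salivary transcripts its adjusted p was 0.0831. Of 2 vitamin B6 genes 0 were called by limma, also at an unadjusted p under 0.05, and Pdxk, the kinase that activates the vitamin, gave -0.12 ± 0.26 in NOD and 0.28 ± 0.26 in MRL/lpr on Affy.

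Among other decarboxylases, 2 of 4 (Csad and Odc1) rose on at least 1 platform in both strains, where 10.1% of all genes did in NOD and 7.33% in MRL/lpr. Csad, which makes hypotaurine, read 13.6, 11.8 and 22.3 in NOD T on CL, against 7.69, 8.91 and 7.37 in NOD placebo, and 19.1, 17.5 and 17.6 in MRL/lpr T, against 6.07, 6.28 and 6.85 in MRL/lpr placebo (log2 change 0.94 ± 0.22, adjusted p = 0.0114, and 1.5 ± 0.22, adjusted p = 0.000745). On Affy it was called in MRL/lpr (1.52 ± 0.30, adjusted p = 0.00473) and gave 0.85 ± 0.30 in NOD (adjusted p = 0.0992). Odc1, the ornithine decarboxylase of polyamine synthesis, rose on its brightest Affy probe set in both strains (1.16 ± 0.19 in NOD, adjusted p = 0.0005, and 0.87 ± 0.19 in MRL/lpr, adjusted p = 0.00792), while its CL probe gave 0.39 in each and was not called. In NOD the Csad call on CL ended with each strain fitted alone (adjusted p = 0.0795), and Odc1 as the mean over its probe sets gave 0.46 (adjusted p = 0.236).

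Of 6 transporters, 1 was called lower in NOD and 0 were called in MRL/lpr. Of all genes tested on at least 1 platform, 10.1% rose and 9.11% fell in NOD, and 7.33% rose and 7.51% fell in MRL/lpr. Slc18a1, the vesicular monoamine transporter of endocrine cells, fell in NOD on CL (-0.71 ± 0.20, adjusted p = 0.0295), with 1.02, 1.02 and 0.97 in NOD T, against 1.4, 1.53 and 2.09 in NOD placebo. Leaving out any 1 of 5 of the 12 pools ended this call, with an adjusted p of up to 0.0892, as did a lower floor (0.0641) and each strain fitted alone (0.0788). Of 3 genes of aromatic amino acid uptake, Slc7a8 rose in MRL/lpr on Affy (1.87 ± 0.42, adjusted p = 0.0106), and leaving out any 1 of 3 pools ended the call, with an adjusted p of up to 0.0706. Among the receptors, 1 of 2 dopamine receptors (Drd4) and 2 of 14 serotonin receptors (Htr3b and Htr5a) rose in MRL/lpr, where 7.33% of all genes rose. In NOD, 0 of 2 and 1 of 14 (Htr3b) rose, where 10.1% of all genes did. These receptor calls were on CL and none was on Affy. Htr3b read 3.61, 3.21 and 3.8 in NOD T, against 1.46, 1.82 and 0.20 in NOD placebo, and 7.54, 8.25 and 9.42 in MRL/lpr T, against 1.41, 1.49 and 2.06 in MRL/lpr placebo (1.69 ± 0.39, adjusted p = 0.0109, and 2.36 ± 0.39, adjusted p = 0.00179), while its Affy probe set failed the filter. All NOD placebo spots of Htr3b were near background, which gave at least 2.25-fold in NOD, and the NOD call ended with each strain fitted alone (adjusted p = 0.0973). Drd4 rose by 1.64 ± 0.41 in MRL/lpr (adjusted p = 0.0208), or 1.55 (adjusted p = 0.0756) without the pool that held salivary transcripts. Of 2 adrenergic and 2 histamine or trace amine receptors tested, 0 were called in either strain by limma, with 1 (Taar1, in MRL/lpr) at an unadjusted p under 0.05. Adra1b gave -0.36 in NOD and -0.34 in MRL/lpr on CL, and Hrh3 gave 0.93 and -0.17. Of 3 tested genes beside Ddc on chromosome 11, 0 were called in either strain, also at an unadjusted p under 0.05, and Grb10 gave 0.58 in NOD and 0.33 in MRL/lpr on CL.

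Pattern of Ddc over the 12 arrays of each platform was compared with 6755 genes that both platforms measured, with Pearson correlation of log2 values as the measure of likeness. It is a description without a test, since the arrays share treatment groups and the placebo values of Ddc sit at the floor. Ranked by the lower of both correlations, the genes most like Ddc were Aldh1l1, a folate enzyme (r = 0.98 on CL and 0.98 on Affy), Slc27a2, a fatty acyl-CoA synthetase (0.96 and 0.96), Cyp2j13, a cytochrome P450 (0.96 and 0.99), Fbf1 (0.96 and 0.95) and Klk1b11, a kallikrein (0.95 and 0.98). As for Ddc, mean CL signals of all 5 were lower in NOD T than in MRL/lpr T, and lower in both placebo groups than under T. Since these genes were picked by their correlation with Ddc on these arrays, this order was largely set by the choice. Cyp2j13 averaged 61.7 ± 26.6 (SD, n = 3) in NOD T, against 0.29 ± 0.22 in NOD placebo, and 126.4 ± 8.65 in MRL/lpr T, against 0.24 ± 0.17 in MRL/lpr placebo. The correlation of Dbh with Ddc was 0.75 on CL and -0.22 on Affy, and that of Maoa was -0.32 and -0.56.

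Markers of cells that can make monoamines were read beside these results. Of 10 markers of sympathetic neurons or neuroendocrine cells, 8 had a CL probe and 9 an Affy probe set, and 6 of the 8 were near background in all CL pools. Their summed CL signal was 4.84 to 5.42 in NOD T, against 5.86 to 6.43 in NOD placebo, and 6.05 to 7.49 in MRL/lpr T, against 4.05 to 5.04 in MRL/lpr placebo. Of the markers, 0 were called in NOD by limma, with 1 (Chgb) at an unadjusted p under 0.05. In MRL/lpr Snap25 on CL (1.34 ± 0.23, adjusted p = 0.00198) and Npy on Affy (1.37 ± 0.33, adjusted p = 0.0183) were higher with T. Each of these calls rests on 1 platform. The brightest Affy probe set of Snap25 was under the floor in all pools, and Npy was near background in all CL pools. Of 9 mast cell markers, 6 had a CL probe. Their summed CL signal was 13.3 to 14.8 in NOD T, against 10.7 to 17.2 in NOD placebo, and 29.2 to 38.0 in MRL/lpr T, against 71.1 to 99.4 in MRL/lpr placebo, with Kit and Cma1 called lower in MRL/lpr. The markers did not all fall. Ms4a2 on CL averaged 1.52 in MRL/lpr T, against 0.95 in MRL/lpr placebo, and Tpsb2 on Affy averaged 86.5 in NOD T, against 43.4 in NOD placebo. On Affy, with 8 of the 9 markers, the sum was 463 to 728 in NOD T, against 864 to 902 in NOD placebo, and 1057 to 1233 in MRL/lpr T, against 1337 to 1858 in MRL/lpr placebo, so that in neither strain did T and placebo pools overlap. Summed B cell markers (3 of 4 with a probe on each platform) were 21.1 to 25.3 in NOD T, against 15.3 to 18.7 in NOD placebo, and 3.17 to 13.2 in MRL/lpr T, against 15.4 to 19.9 in MRL/lpr placebo on CL. Other cell types also moved with T, in NOD and in part in MRL/lpr. T cell markers summed to 16.96 to 24.4 on CL in NOD T, against 10.4 to 11.7 in NOD placebo, with 3 of 4 called higher. Macrophage markers summed to 3777 to 4114 on Affy in NOD T, against 1161 to 1537 in NOD placebo, with 3 of 4 called higher. Myoepithelial markers summed to 19.2 to 25.7 on CL in NOD T, against 46.5 to 51.1 in NOD placebo, with 3 of 4 called lower on each platform. Of the acinar markers tested in NOD, 1 of 4 was called lower on CL (Slc12a2) and 3 of 6 on Affy (Aqp5, Bhlha15 and Slc12a2), with a median log2 change of -0.58 on CL and -0.78 on Affy. Myoepithelial sums on CL were also lower in MRL/lpr T (49.9 to 54.2) than in MRL/lpr placebo (59.7 to 73.4). On Affy they were 4438 to 4668 in MRL/lpr T, against 8438 to 10819 in MRL/lpr placebo. Adipocyte sums on CL were 6.31 to 7.55 in NOD T, against 10.4 to 15.3 in NOD placebo. In MRL/lpr they were 10.3 to 24.4 in T, against 29.7 to 35.3 in placebo. On Affy the adipocyte sums were also lower in NOD T, and they overlapped in MRL/lpr. T cell sums in MRL/lpr overlapped on CL and were 434 to 761 in T, against 1066 to 1510 in placebo, on Affy. Acinar sums in MRL/lpr overlapped on CL and were 269536 to 375077 in T, against 200344 to 237062 in placebo, on Affy. In MRL/lpr, 2 of 2 neutrophil and 2 of 3 B cell markers were called lower on each platform. Of all genes tested in NOD, 8.58% were called higher and 8.68% lower on CL, and 7.36% and 4.89% on Affy. Called lower in MRL/lpr were 6.56% of all genes on CL and 4.90% on Affy. The part of these cell types in the results of the members and lists was not tested.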

How the data were processed

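The members and the gene lists were chosen with earlier results of these arrays known. For CL, the authors' deposited intensities, already normalized to the median of each array, were taken as given. Spots marked contaminated, irregular or masked were left out, and 2847 spots per array outside the value table were not used. For Affy, the deposited intensities had trimmed means of 22.1 to 150.0. Since the methods state scaling to 500, each array was multiplied by 3.33 to 22.6 to reach it.

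Signals below the floor (0.5 on CL, 70.5 on Affy) were raised to it and log2 was taken. Probes were kept where at least 1 group averaged above the floor, and lmFit and eBayes with a trend (limma 3.58.1, R 4.3.3) fitted the 4 groups on the 12 arrays of a platform, with Benjamini-Hochberg adjustment over all probes. A gene was called when at least 1 probe passed and none passed the other way. Arrays carry no depth, so 3 pools per group and the 47.1% to 60.9% of CL spots near background limit the precision. A p measures only the spread between these pools.

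Symbols came from the platform annotation. On CL 11377 probes had 1 symbol and 6063 none; on Affy 20393 had 1, 691 several and 1606 none. All member probes are named. Of each role list, up to 4 genes called in a T comparison with the smallest adjusted p are named, or the gene with the highest mean signal where none was called, besides Moxd1, Moxd2 and the 5 genes most like Ddc. Where 1 group was unmeasurable, "at least" folds compare log2 means, with each dim array at the higher of its lowest measurable signal (CL; the floor on Affy) and the probe's own. The fit was tested on simulated data. Alternatives were quantile normalization, other floors and filters, Affy as deposited or scaled to medians, normexp (offset 50) on CL, each strain alone, a replicate block, the methods' t-test, the mean over probes and leaving out each pool.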

Additional observations from a re-analysis of the deposited data

Results flagged for a closer look

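The effect of T differed between the strains for 4 named genes, none of them a member, in a test of the difference itself (limma, NOD change minus MRL/lpr change). Moxd2 differed by 2.43 on CL (adjusted p = 0.00133) and by 3.59 on Affy (adjusted p = 0.000227), and no left-out pool ended either call. On Affy, Moxd2 was kept by the filter only through the T groups, so the Affy p is no support for a difference. Htr5a differed by -1.96 on CL (adjusted p = 0.0159), with 0.80, 0.56 and 1.0 in NOD T, against 1.11, 0.94 and 0.28 in NOD placebo, and 1.76, 2.16 and 2.37 in MRL/lpr T, against 0.37, 0.53 and 0.68 in MRL/lpr placebo. Under a lower floor its CL difference was -1.84 (adjusted p = 0.155), and its Affy probe set gave -0.16 (adjusted p = 0.919). Slc18a1 differed by -1.18 on CL (adjusted p = 0.0252), and the NOD T pools lay below NOD placebo while the MRL/lpr T pools lay above MRL/lpr placebo. On Affy the difference was -1.20 (adjusted p = 0.292). Leaving out any 1 of 4 pools ended the CL call, with an adjusted p of up to 0.071, as did a lower floor (adjusted p = 0.0586). Moxd1, near background in all CL pools and kept by the filter only through MRL/lpr placebo, differed by 1.00 (adjusted p = 0.0446). Leaving out any 1 of 10 pools ended that call, as did quantile normalization, a lower floor, no filter and normexp (adjusted p = 0.052, 0.255, 0.0593 and 0.127).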

How the results depend on the processing

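Single settings decided several member calls on CL. With 1 member called for T in MRL/lpr (Dbh), 0 were called under quantile normalization, the low floor, no filter and the adjusted methods' t-test, 2 under the high floor and 3 by the t-test without adjustment, and leaving out pools gave 0 to 2. With 1 for T in NOD (Dbh), 0 were called with no filter, each strain fitted alone and the adjusted t-test, 2 under the high floor, and 0 to 1 without single pools. For the difference between strains 0 were called, or 0 to 1 without single pools. For NOD against MRL/lpr under placebo 1 was called, but 0 under the low floor, 2 under the high floor and with normexp, and 0 to 2 without single pools. Under T, 2 were called, but 1 under the low floor and with normexp, and 1 to 3 without single pools. On Affy 0 were called in all comparisons, against 1 (Maoa) for T in MRL/lpr by the t-test without adjustment and, for signals as deposited, 2 for T in NOD and 4 for NOD against MRL/lpr under T. Those signals also shifted the median of all probe sets by 0.62 for T in NOD and 1.52 for the strains under T. The causes were not tested.

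Directions that turned were those for signals as deposited of Ddc (0.17 for the difference of the T effects and for the strains under T, on Affy), of Dbh (1.23) and Maoa (1.60) for the strains under T on Affy, and of 1 Akr1a1 probe set for T in NOD (0.018). Another Akr1a1 probe set gave -0.072 as a mean over probes, and an Odc1 probe set gave -0.83 to 0.63 without single pools (0.63 without NOD T pool 1). The log2 change of Ddc lay between 1.15 and 3.69 in NOD and 2.44 and 5.88 in MRL/lpr on CL, and between 3.99 and 6.11 and 5.70 and 7.0 on Affy. It was lowest on CL with normexp. Pools share only a number between groups (correlations of same-numbered pools were -0.073 to 0.087 on CL and -0.069 to 0.11 on Affy), and the replicate block left 1, 1, 0, 1 and 2 members called on CL and 0 in all comparisons on Affy.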
